A study of Mus musculus with 6 samples.

Results

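The insulin-like growth factor (IGF) axis was followed in smooth muscle cells (SMC) of the skeletal muscle vasculature as 9 genes, chosen by symbol: the ligand gene Igf1, the receptor genes Igf1r and Igf2r, and the binding protein genes Igfbp2, Igfbp3, Igfbp4, Igfbp5, Igfbp6 and Igfbp7. All 9 were found among the 32179 genes of the deposited table, and 8 of them, all but Igfbp2, were among the 12735 genes tested (a mean value of at least 10 over the 6 libraries). The mice were male C57BL6J, 8 to 24 weeks old, with a Gprc5c-floxed background named for every sample, and all carried the mTmG reporter, which turns on EGFP where Cre has recombined, and had been induced with tamoxifen. The 3 control libraries have the genotype label wild type, and the 3 others the label iSM-G5C-KO, which stands for loss of GPRC5C, an orphan G protein-coupled receptor, from smooth muscle (here KO). The promoter that drives the Cre, and whether each library came from 1 animal or a pool, are not stated in the labels. EGFP-positive cells were sorted after depletion of cells that bound antibodies to CD31, CD45 or Ter119, and 5 ng of total RNA went into each library.

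IGF1 acts through the receptor tyrosine kinase IGF1R, which signals through the IRS adaptors to PI3 kinase, AKT and the MAP kinases. IGF2R, the cation-independent mannose 6-phosphate receptor, has no kinase: it takes IGF2 up for degradation and carries newly made enzymes to lysosomes. The secreted IGF-binding proteins hold most IGF outside cells, and proteases that cut them set it free. In vessel walls, IGF1 is known as a growth and survival factor for SMC.

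The question was whether these genes differed between control and KO libraries. At the depth of the table none was called: 0 of the 8 tested genes passed an adjusted p of 0.05 in limma's test over all genes, as did 0% of all 12735. The count was also 0 of 8 with the replicate number as a block, where 0.00785% of all genes passed. Mean log2 values were lower in KO libraries for 5 of the 8 genes and higher for 3, with a median difference of -0.05, while over all tested genes 49.8% were lower, 50.2% higher and the median was 0.0011. The largest differences were those of Igf1, at 70.8% of the control mean, and of Igf2r, at 114.9%. The control and KO values overlapped in all 8, against 4.91% of tested genes where they did not overlap. No label says that the libraries came from separate animals, so the p-values speak only of the spread among these 6 samples, part of which may be technical.

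The libraries hold an estimated 1480127 to 2935114 reads in the table, with summed normalised counts of 2030819 to 2216011. Control library 3 lists 29707 genes above 0, against 20481 to 21179 in the others. The targeted gene Gprc5c was at 428, 532 and 497 in control libraries 1 to 3, with 328, 305 and 360 in KO libraries 1 to 3. Every KO value lay under every control value, with a KO mean at 68.15% of the control mean and a log2 difference of -0.55. The unadjusted p was 0.00323 and the adjusted p 0.999 with limma, so a gene not called here may still differ between the groups. The 10 smooth muscle markers, among them Myh11 and Acta2, were all measured, and summed to 12529 to 12876 in controls and 10915 to 12845 in KO libraries. Markers listed for other cells were measured too. Their sums were 5872 to 10573 for fibroblasts (13 genes), 10391 to 18466 for pericytes (9) and 688 to 1407 for the endothelium (12). They were 160 to 757 for leukocytes (13) and 1608 to 9294 for muscle fibres (12). For satellite cells (7), Schwann cells (8) and adipocytes (6) they were 178 to 225, 298 to 463 and 172 to 283. The pericyte list was led by Notch3 (mean 3363) and Abcc9 (2366), and the endothelial list by Esam (379.5). SMC may transcribe some listed genes themselves, so these sums do not measure how many such cells were present. By mean log2 value, 9 of the 10 smooth muscle markers were lower in KO libraries (median difference -0.10), as were 11 of 13 fibroblast markers (-0.09). Higher were 12 of 12 endothelial (0.31), 11 of 12 muscle fibre (0.26) and 9 of 9 pericyte markers (0.20). The tested leukocyte markers were 5 higher and 4 lower, satellite cell markers 3 and 2, Schwann cell markers 4 and 4, and adipocyte markers 1 and 1. In each list 0 passed the threshold. Summed muscle fibre markers were at 1608, 2572 and 3863 in controls, with 2242, 4705 and 9294 in the KO group. From control library 3 to KO library 3, Ttn alone went from 868 to 5386, Neb from 199 to 661 and Ryr1 from 97 to 494. Myh4, Atp2a1 and Myh2 were also higher there, while Acta1, Tnnt3, Myh1, Ckm, Tnni2 and Mylpf were lower. The part of these cells in the differences of the IGF axis genes was not tested. None of the markers was at 0 in all libraries. In bulk RNA, fewer cells of a type and less RNA per cell cannot be told apart.

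Igf1 (ENSMUSG00000020053, chr10:87858265-87937042, plus strand, GRCm38) is the ligand gene. The normalised count of Igf1 was 131, 257 and 164 in control libraries 1 to 3, with 91, 146 and 154 in KO libraries 1 to 3. Control library 2 was the highest and KO library 1 the lowest, and the KO library was below the control of the same number each time, yet KO libraries 2 and 3 exceeded control library 1. The means were 184.0 ± 65.3 and 130.3 ± 34.3 (SD, n = 3 each), a log2 difference of -0.47 with a standard error of 0.29. The 95% interval ran from -1.15 to 0.20, which as a fold is 0.450 to 1.15. Adjusted p was 0.999 with limma and 0.292 with the replicate block, where the unadjusted p was 0.00949. A difference this low or lower was seen in 4.98% of all tested genes.

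The Igf1 difference depended on single libraries. Leaving out control library 2 brought it to -0.21, and leaving out KO library 1 to -0.24. Leaving out any other library enlarged it, to -0.69 without control library 1, -0.61 without KO library 3, -0.57 without KO library 2 and -0.53 without control library 3. Between same-numbered libraries it was -0.52, -0.81 and -0.09 for numbers 1, 2 and 3. The spread of Igf1 within controls, a coefficient of variation of 35.5%, was well above the 7.62% that counting error alone would give at the estimated reads. Fibroblasts also transcribe Igf1. Their marker sum was 6856, 8939 and 10573 in controls, with 5872, 9472 and 9594 in the KO group. The libraries numbered 1 were lowest for Igf1 and for this sum. They were lowest for the pericyte, endothelial, muscle fibre and adipocyte sums too. Of the 13 fibroblast markers 11 had a lower mean log2 value in KO libraries, with a median difference of -0.09. Their sum was higher in KO library 2 than in control library 2, the number in which Igf1 differed most, and lower in the KO library of the other numbers. Single markers were mixed in number 2. From control to KO, Col1a1 went from 2434 to 2839 and Col3a1 from 2629 to 2932, while Pdgfra went from 447 to 397 and Dcn from 569 to 522. Pdgfra, Lum and Dpt, like Igf1, were lower in the KO library of every number, as were 15.4% of all tested genes. Pi16 was higher in every number, at 60, 106 and 86 in controls and 62, 130 and 97 in the KO group. The other fibroblast markers were mixed over the numbers. Leukocytes, another known source, had marker sums of 673, 178 and 730 in controls, with 569, 160 and 757 in the KO group, so they were low in both libraries numbered 2, among them control library 2, where Igf1 was highest. The part of the other cells in the Igf1 difference was not tested.

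**Figure D1:**
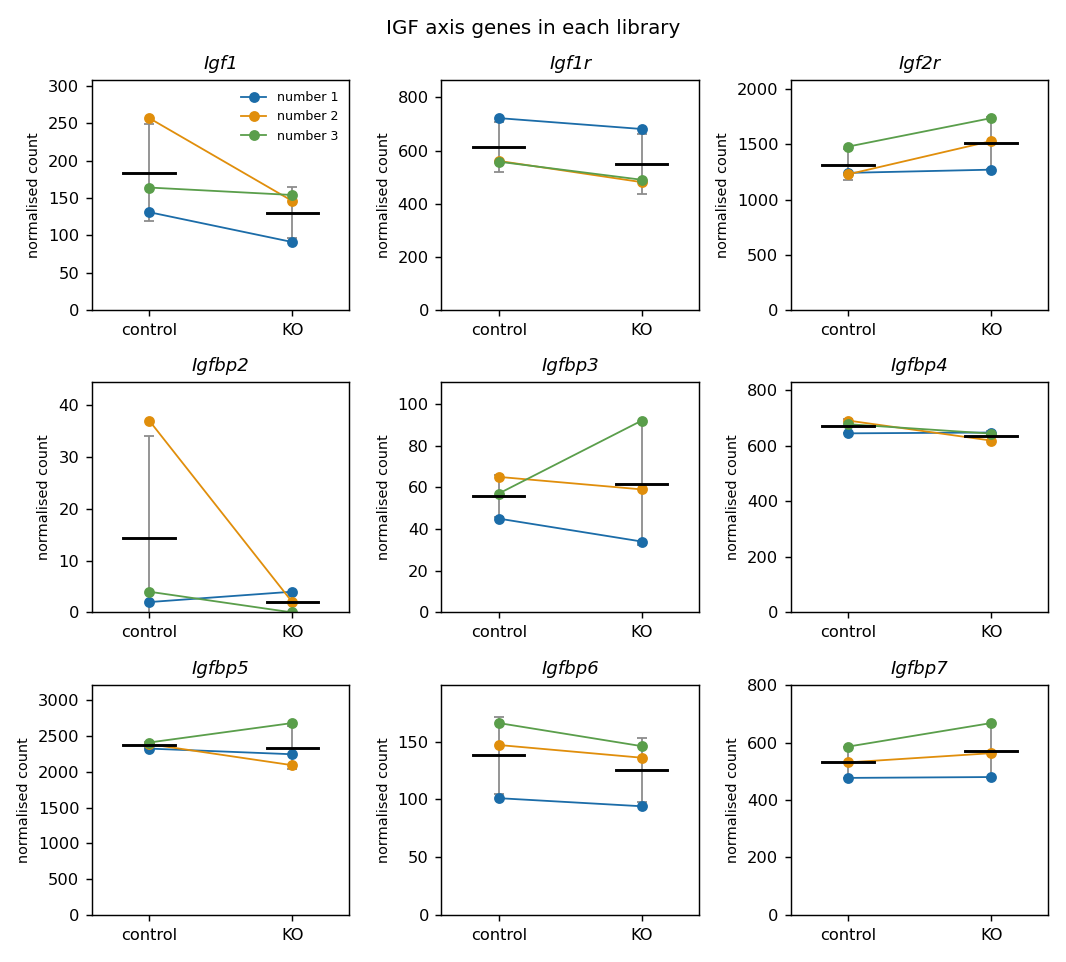
Normalised count (vertical axis, from 0) of each of the 9 genes in control and KO libraries, 1 point per library, with lines joining libraries of the same replicate number, black bars for group means and grey bars for 1 SD (n = 3). All panels overlap between groups, Igf1 is lower in the KO library of every number (131 to 91, 257 to 146 and 164 to 154), and Igfbp2 is above 4 in control library 2 only.

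The 2 receptor genes had mean differences of opposite sign, neither past the threshold. Igf1r (ENSMUSG00000005533, chr7:67952827-68233668, plus strand) was at 722, 561 and 558 in controls, with 681, 481 and 490 in the KO group. Both libraries numbered 1 were highest, and the KO library was lower within each number, by 0.08, 0.22 and 0.19 on the log2 scale. The log2 difference was -0.16 with a standard error of 0.18 and a 95% interval of -0.58 to 0.25 (adjusted p = 0.999 with limma).

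Igf2r (ENSMUSG00000023830, chr17:12682406-12769664, minus strand) was at 1242, 1229 and 1480 in controls, with 1271, 1530 and 1738 in the KO group. The KO library was higher within each number, by 0.03, 0.32 and 0.23 on the log2 scale, but KO library 1 lay under control library 3. The log2 difference was 0.19 with a standard error of 0.16 and a 95% interval of -0.17 to 0.56 (adjusted p = 0.999 with limma). With the replicate block the unadjusted p of Igf2r from limma was 0.0324 and the adjusted p 0.439. An unadjusted p under 0.05 with the block was met by 2 of the 8 genes, Igf1 and Igf2r, and by 10.2% of all tested genes. Without it the count was 0 of 8, against 1.81% of all tested genes.

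The noncoding gene Airn, whose transcript silences the paternal Igf2r allele in most mouse tissues, runs over the start of Igf2r on the opposite strand. It was at 95, 101 and 182 in controls, with 111, 106 and 130 in the KO group, with a log2 difference of -0.06 and an adjusted p of 0.999 with limma. Since use of strand in counting is not stated, reads from their shared stretch cannot be assigned with certainty, although Airn amounted to only 6.93 to 12.3 normalised counts per 100 of Igf2r.

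**Figure D2:**
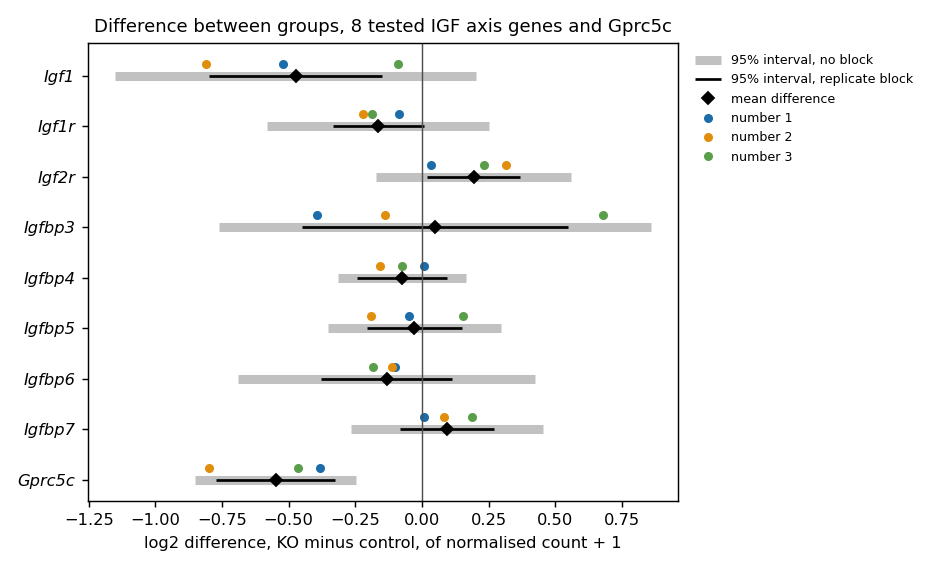
Log2 difference, KO minus control, of normalised count + 1 (horizontal axis) for the 8 tested IGF axis genes and Gprc5c: diamonds are mean differences, coloured points those between same-numbered libraries, and bars the 95% intervals of limma without (grey) and with (black) the replicate block. Without the block all 8 IGF axis intervals cross 0, while that of Gprc5c does not, and with it those of Igf1 and Igf2r do not.

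Among the binding proteins, Igfbp5 and Igfbp2 are neighbours on chromosome 1, on opposite strands with their 3' ends 5457 bp apart, and had the highest and the lowest counts of the family. Igfbp5 (ENSMUSG00000026185, chr1:72857932-72874884, minus strand) encodes a matrix-binding protein known to be made by SMC. It was at 2323, 2385 and 2408 in controls, with 2244, 2091 and 2680 in the KO group. The controls lay close together and the KO libraries on both sides of them, KO library 2 below and KO library 3 above. The log2 difference was -0.03 with a standard error of 0.14 and a 95% interval of -0.35 to 0.30 (adjusted p = 0.999 with limma). Within controls its coefficient of variation was 1.85%, against 2.05% from counting error alone, while within KO libraries it was 13.1% against 2.11%.

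Igfbp2 (ENSMUSG00000039323, chr1:72824503-72852474, plus strand), whose protein carries an integrin-binding motif, was at 2, 37 and 4 in controls, with 4, 2 and 0 in the KO group. At a mean of 8.17 it was not tested, and control library 2 stood apart from the other 5, which were at 4 or below. Those 37 normalised counts stand for an estimated 40 reads. Control library 2 had 1 gene in the whole table with a value of at least 30 and at least 5 times that of every other library, and this was Igfbp2. That rule was chosen after its values were seen. The same count was 0 to 9 in the other libraries.

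The upstream ends of 4 binding protein genes are shown because these genes span the range from near 0 to the top of the table. Each run holds the 70 bases just before the RefSeq start site (GRCm38.p6), 5′ to 3′ on the gene's own strand, and capitals mark TATAAA, searched for from 60 to 10 bases before the start. The positions are chr1:72824410-72824479 (plus) for the first of 2 listed starts of Igfbp2, chr1:72874866-72874935 (minus) for Igfbp5, chr11:99041174-99041243 (plus) for Igfbp4 and chr5:77408046-77408115 (minus) for Igfbp7.
Igfbp2: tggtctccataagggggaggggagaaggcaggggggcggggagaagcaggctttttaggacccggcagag
Igfbp5: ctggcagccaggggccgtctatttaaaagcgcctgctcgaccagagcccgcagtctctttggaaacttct
Igfbp4: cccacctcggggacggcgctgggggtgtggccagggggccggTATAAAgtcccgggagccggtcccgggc
Igfbp7: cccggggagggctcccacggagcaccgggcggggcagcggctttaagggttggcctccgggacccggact

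All 9 genes had an entry in that table, and 1 of them, Igfbp4, held TATAAA on its own strand, starting 28 bases before the start. The same letters stood in 2.65% of all 32851 listed promoters on their own strand, in 3.57% on either strand, and in 1.33% of those of tested genes. Over the whole 250 bases before the start, GC content was 67.2% for Igfbp2, 58.8% for Igfbp5, 69.2% for Igfbp4 and 74% for Igfbp7, against a median of 60% among tested genes. The other listed start of Igfbp2 had 56.4%.

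Igfbp4 (ENSMUSG00000017493, chr11:99041244-99054392, plus strand), a binding protein that restrains IGF until the protease PAPP-A cuts it, had the narrowest range of the 9 genes relative to its mean. It was at 645, 691 and 678 in controls, with 648, 619 and 644 in the KO group. KO library 1 lay above control library 1, and the other KO libraries lay just under all controls. The means were 671.3 ± 23.7 and 637.0 ± 15.7 (SD, n = 3 each), a log2 difference of -0.08 with a standard error of 0.10. The 95% interval, -0.32 to 0.17, is a fold of 0.804 to 1.12 (adjusted p = 0.999 with limma). Its coefficients of variation, 3.53% in controls and 2.47% in KO libraries, were no larger than the 3.85% and 4.06% that counting error alone would give.

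Igfbp3 (ENSMUSG00000020427, chr11:7206086-7213923, minus strand) encodes the main IGF carrier of blood plasma. It was at 45, 65 and 57 in controls, with 34, 59 and 92 in the KO group. KO libraries held both the lowest and the highest value, and the differences within numbers were -0.39, -0.14 and 0.68 on the log2 scale. The log2 difference was 0.05 with a standard error of 0.35, and its 95% interval of -0.76 to 0.86 was the widest of the 8. Its coefficient of variation within KO libraries was 47.2%, against 13.6% from counting error alone at 41 to 66 estimated reads a KO library.

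Igfbp6 (ENSMUSG00000023046, chr15:102144362-102149511, plus strand) encodes the binding protein that prefers IGF2 over IGF1. It was at 101, 147 and 166 in controls, with 94, 136 and 146 in the KO group. Libraries numbered 1 were lowest in both groups, and the KO library was the lower one within each number, by 0.10, 0.11 and 0.18 on the log2 scale. The log2 difference was -0.13 with a standard error of 0.24 (adjusted p = 0.999 with limma). The fibroblast, pericyte, endothelial, muscle fibre and adipocyte marker sums were also lowest in the libraries numbered 1. These 2 libraries also had the most estimated reads. The part of such cells and of depth in the Igfbp6 values was not tested.

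Igfbp7 (ENSMUSG00000036256, chr5:77349240-77408041, minus strand) encodes a secreted relative that binds IGFs only weakly and lies in vessel walls. It was at 477, 531 and 586 in controls, with 480, 563 and 668 in the KO group. The KO library was higher within each number, by 0.01, 0.08 and 0.19 on the log2 scale. The ranges of the groups overlapped, and KO library 3 lay above every control. The log2 difference was 0.09 with a standard error of 0.15 and a 95% interval of -0.26 to 0.45 (adjusted p = 0.999 with limma). The orders of the 6 libraries, from low to high, were compared between the 8 genes and 9 marker sums, and 1 of these 72 pairs had the same order: Igfbp7 and the summed pericyte markers, which were at 10391, 12330 and 15993 in controls, with 11070, 14046 and 18466 in the KO group. Of the 9 pericyte markers all 9 had a higher mean log2 value in KO libraries, with a median difference of 0.20 and 0 past the threshold. Estimated reads ran in exactly the opposite order to Igfbp7 and this sum, from 2935114 in control library 1 down to 1480127 in KO library 3. The part of pericyte markers and of depth in the Igfbp7 values was not tested. The gene overlaps the end of Polr2b on the other strand, which was at 245, 270 and 233 against 253, 257 and 258.

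Among all tested genes 15.4% were lower in the KO library of every number and 14% were higher. Of the 8 IGF axis genes, Igf1, Igf1r and Igfbp6 were lower in every number, and Igf2r and Igfbp7 higher. The differences within number 1 were small for Igf2r and Igfbp7, 0.03 and 0.01.

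**Figure D3:**
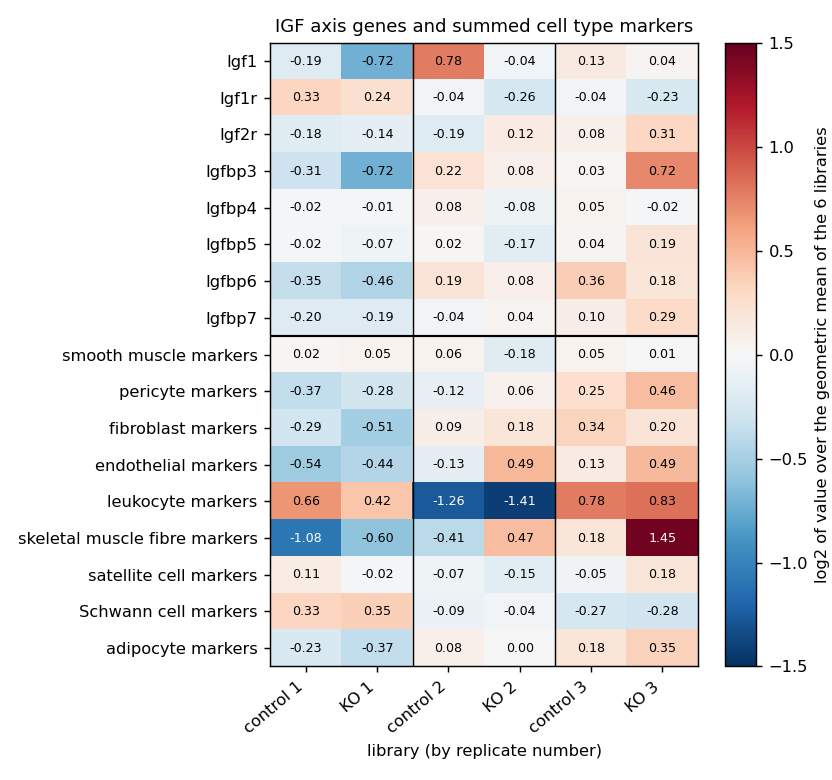
Log2 of each library's value over the geometric mean of the 6 libraries (colour and printed value) for the 8 tested IGF axis genes and, below the line, for the summed markers of 9 cell types, with libraries (columns) side by side by replicate number. Igf1r is highest in both libraries numbered 1 (0.33 and 0.24). Igfbp6 and the fibroblast, pericyte, endothelial, muscle fibre and adipocyte sums are lowest there, and leukocyte markers are lowest in both libraries numbered 2.

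Levels of different genes were compared as normalised counts per kilobase of annotated exon (the union of all exons in GENCODE M21). On this scale Igfbp7 was highest, at 455.6 ± 59.6 (SD, n = 6) with a range of 395 to 553 over the libraries. Igfbp5 followed at 392.1 ± 32.7, with a range of 348 to 446 that overlapped that of Igfbp7. Both stood among the top of 11715 protein-coding genes, at ranks 7 and 14, beside the contractile genes Acta2 (504.3) and Tagln (385.1). The housekeeping gene Gapdh stood at only 31.7 (rank 4184), so a rank on this scale need not match RNA abundance in the cells.

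Igf2r (152.0 ± 21.9), Igfbp4 (148.1 ± 5.89) and Igfbp6 (118.4 ± 25.4) formed a middle group (SD, n = 6 each) whose ranges overlapped, from 84.5 to 187 per kilobase. Their ranges did not reach those of the top 2 genes or of Igf1r, at 34.7 ± 5.90, whose lowest library (28.6) lay just under the highest of Igfbp3 (29.4). Igfbp3 (18.7 ± 6.31) and Igf1 (15.9 ± 5.57) were not distinct from each other, and both lay under the protein-coding median of 22.3. Igfbp2 was last, at 4.42 ± 7.69, with its value in control library 2 inside the range of Igf1.

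Compared with IGF1, its relative IGF2 had much the higher RNA level: Igf2 was at 92.3 ± 12.7 per kilobase (SD, n = 6), and the insulin receptor gene Insr, at 31.4 ± 5.14, was close to Igf1r. With the length of the longest transcript instead, Igf1 came to 22.3, Igf1r to 51.0, Igfbp4 to 170.8 and Igf2r to 159.2, so that Igfbp4 and Igf2r changed places. The scale is narrow at its top, since the highest protein-coding gene, Myl9, stood at 599.4 per kilobase. Whether duplicate reads were removed, which would hold down short and abundant transcripts, is not stated in the labels, and its part in these levels was not tested.

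**Figure D4:**
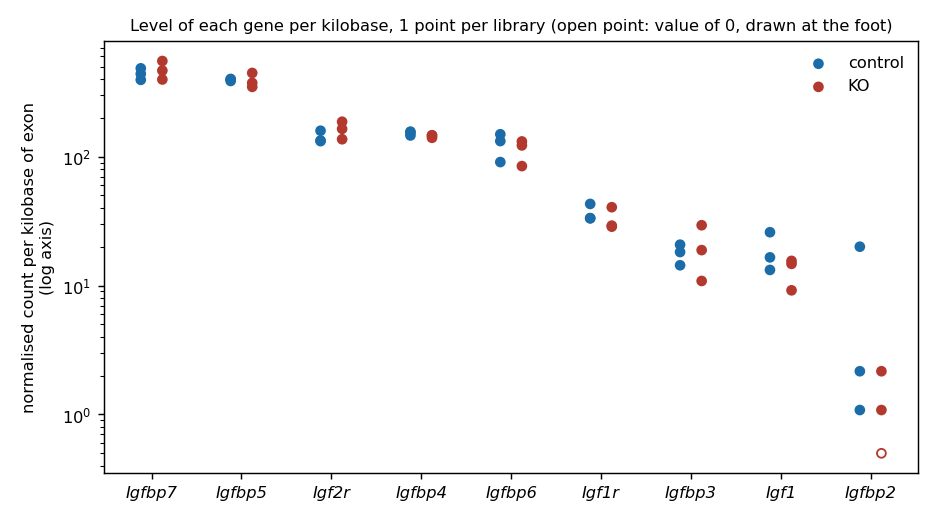
Normalised count per kilobase of exon (vertical log axis) of the 9 genes, 1 point per library, control in blue and KO in red, from the highest mean to the lowest. Igfbp7 and Igfbp5 lie between 348 and 553, Igf2r, Igfbp4 and Igfbp6 between 84.5 and 187, and Igfbp2 is at or below 2.17 in all libraries but control library 2, with a 0 drawn as an open point.

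Other genes of the axis were taken as a list of 23 (ligand and relatives, processing enzymes, proteases and their inhibitors, RNA-binding proteins named after IGF2), of which 18 were tested. Of these 8 were higher and 10 lower in KO libraries by mean log2 value, with a median difference of -0.01, and 0 passed the threshold. Plat, the gene of tissue plasminogen activator, was at 194, 212 and 187 in controls, with 244, 290 and 228 in the KO group. Its groups did not overlap, with a log2 difference of 0.35 and a standard error of 0.13 (adjusted p = 0.999 with limma, and 0.246 with the replicate block). It was the only one of the 18 without overlap, where 4.91% of all tested genes had none.

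Pcsk6, a convertase of the furin family, was at 39, 48 and 85 in controls, with 109, 63 and 120 in the KO group. Its log2 difference was 0.78 with a standard error of 0.34 and overlapping groups (adjusted p = 0.999 with limma, and 0.266 with the replicate block). Tmem219, which encodes a receptor for IGFBP3, was at 48, 62 and 65 against 54, 68 and 92. Ctsd, the gene of the lysosomal protease cathepsin D, was at 184, 194 and 199 against 194, 211 and 283. Pcsk6, Tmem219 and Ctsd were each higher in the KO library of every number, and none of them was called.

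The proteases of the binding proteins spanned a wide range of normalised counts. Pappa, which encodes PAPP-A, ranged from 25 to 57 and Pappa2 from 52 to 120, while Htra1 and Htra3 ranged from 367 to 543 and from 120 to 251. The inhibitors of PAPP-A, Stc1 and Stc2, ranged from 8 to 36 and from 37 to 147. Igf2 itself ranged from 459 to 629, with a log2 difference of -0.05. Lrp1, an endocytic receptor, ranged from 2844 to 5044, Insr from 359 to 523, Furin from 374 to 443, Pcsk5 from 52 to 120 and the growth hormone receptor gene Ghr from 93 to 105. Insrr and Igf2bp2 ranged from 17 to 52 and from 11 to 32. Igfals, Igfbpl1, Igf2bp1 and Igf2bp3 stayed at 4 or below throughout and were not tested, and Igfbp1 was not analysed here.

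Downstream of the receptor, 48 signalling genes were tested. By mean log2 value 33 were lower in KO libraries and 15 higher, with a median difference of -0.07, and 0 passed the threshold. Irs2, the adaptor that carries the signal of IGF1R and the insulin receptor to PI3 kinase, was at 1603, 1023 and 718 in controls, with 1308, 512 and 417 in the KO group. It was highest in the libraries numbered 1 and lower in the KO library of each number, by 0.29, 1.00 and 0.78 on the log2 scale. Its log2 difference was -0.69 with a standard error of 0.45, and its adjusted p was 0.999 with limma and 0.142 with the replicate block.

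Socs3, a feedback inhibitor of cytokine and insulin signalling, was at 686, 668 and 539 in controls, with 598, 472 and 437 in the KO group. Its log2 difference was -0.33 with a standard error of 0.16. An unadjusted p under 0.05 with the block was met by 3 of the 48, against 10.2% of all tested genes. The median turned to 0.0057 when control library 1 was left out. It was -0.0037 with sample quality weights, -0.03 when KO library 3 was left out and -0.12 when KO library 1 was.

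Genes that FOXO factors are known to turn on when AKT signalling is low made up another list. Of 24 tested 17 were lower and 7 higher, with a median difference of -0.09 and 0 past the threshold, and Irs2 belongs to this list too. Fbxo32, a muscle ubiquitin ligase gene, was at 546, 480 and 333 in controls, with 533, 235 and 248 in the KO group. Trib1, a pseudokinase gene, was at 288, 239 and 182 against 229, 184 and 153, lower within each number. Klf15 went the other way in mean, at 62, 68 and 32 against 83, 58 and 76. An unadjusted p under 0.05 with the block was met by 5 of the 24, against 10.2% of all tested genes. Without KO library 2 the median was -0.01.

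The genes whose log2 values followed each IGF axis gene most closely over the 6 libraries were sought among 8340 genes with a mean of at least 50. They were Eif2b4 and Taf6 for Igf1, Tomm20 for Igf1r, and Wipf1 and Mndal for Igf2r. For the binding proteins they were Clta and Rpl36 (Igfbp3), Gigyf1 and Usp48 (Igfbp4), Nhlrc3 and Tprgl (Igfbp5), Adh1 and Bckdk (Igfbp6) and Iqcc and Cst3 (Igfbp7). Pearson's r ranged from 0.963 to 0.998. These are the best of 8340 on 6 points that share replicate numbers and depth, and they are given as a description with no test. Tomm20, for example, was at 134, 105 and 103 in controls, with 129, 90 and 90 in the KO group, highest in both libraries numbered 1 as Igf1r was. Adh1 was at 57, 122 and 138 against 54, 104 and 112, lowest in both libraries numbered 1 as Igfbp6 was.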

How the data were processed

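RNA sequencing of sorted SMC gave 1 table with 6 library columns, which were mapped to samples by their description labels, 3 control and 3 KO. The deposited values are a score, namely normalised counts: gene-level read counts scaled by 1 factor for each library and rounded to whole numbers by the authors, as the name of the table and the spacing of low values show. Per the submitters' processing notes, the tools included STAR 2.6.1d, Trimmomatic 0.39, DESeq2 1.18.1 and featureCounts 1.6.5 and the builds mm10 and GRCm38.p5; these notes give none of them a role. Whether strand was used in counting or duplicates were removed is not stated there or in the labels.

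The worth of 1 read was estimated per library by a grid search (0.6 to 2, in steps of 0.0005) on how often each whole number up to 100 occurs. It was 0.755, 0.915 and 1.33 for controls, with 0.831, 0.923 and 1.40 for the KO group. Whole reads were not recovered, so no count model was used. Counting error from estimated reads covers counting only. No 2 libraries of a group agreed within counting noise (chi-square over degrees of freedom 3.09 to 10.2), and each was counted as 1 replicate.

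Values were tested as log2(value + 1) with limma 3.58.1 (R 4.3.3), 2-sided, with an intensity trend, on genes with a mean of at least 10, with Benjamini-Hochberg adjustment over all 12735 and a threshold of 0.05. Fold changes on this scale understate those of low genes. The method was run on simulated data with changes larger than those of the tested IGF axis genes and with no structure by replicate number. That run does not show how well differences as small as those here would be found. The members and lists were chosen with earlier results of these data known. The text names the 9 genes, Gprc5c, in each list members past the threshold or the 4 with the smallest p at a mean of at least 50, each gene of the IGF axis list by its range, and the 2 genes most like each member; a few genes named by this rule are not reported.

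Same-numbered libraries deviated together from their group means (correlations over genes of 0.59, 0.31 and 0.44, and at most 0.16 otherwise). The main fit had no block. Libraries were paired by number only in the alternative fit with the replicate block and in the differences given within numbers. The pairing rests on these correlations alone, as the labels do not explain the numbers. Deviations within a group cancel out, so high correlations for like numbers go with low ones for unlike numbers. Depth also fell with the number in both groups. Estimated reads were 2935114, 2253883 and 1556750 in controls, with 2581454, 2200237 and 1480127 in the KO group. The part of depth in the correlations was not tested. Exon lengths were found in GENCODE M21 for 32108 of 32179 genes, and the 9 genes had the same coordinates there as in the table.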

Additional observations from a re-analysis of the deposited data

How the results depend on the processing

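The number of changed genes was 0 with limma (230 had an unadjusted p under 0.05). It was 1 with the replicate block and 2 with sample quality weights, and 0 whichever single library was left out; the cause was not tested. Of the IGF axis genes 0 passed in all 14 alternatives. Igf1 was lower in all 14, from -0.74 to -0.21 (adjusted p 0.201 to 1.0 with limma), Igf1r from -0.33 to -0.04, and Igfbp4 from -0.12 to -0.05. Igf2r was higher in all 14, from 0.09 to 0.31. Leaving out 1 library reversed 4 genes with small differences. Igfbp3 came to -0.09 without control library 1 and -0.29 without KO library 3, and reached 0.41 without KO library 1. Igfbp5 came to 0.048 without KO library 2, from -0.13 at the lowest. Igfbp6 came to 0.015 without control library 3 and 0.060 without KO library 1, from -0.34 at the lowest. Igfbp7 came to -0.026 without KO library 3, and reached 0.21. With no filter on low values Igfbp2 had a log2 difference of -1.75 with a 95% interval of -4.10 to 0.61, and the median of all genes moved to -0.14; it had no value elsewhere. The replicate block changed no call among these genes or lists. The length alternative was chosen after seeing the data. Depth limits Igfbp2 and Igfbp3 most, at 0 to 71 estimated reads.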

Other observations

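Within each library, the ratio of Igf2r to Igf1r normalised counts sets the 2 receptor genes, whose mean differences had opposite signs, against each other. It was 1.72, 2.19 and 2.65 in control libraries 1 to 3, with 1.87, 3.18 and 3.55 in KO libraries 1 to 3. The ratio was higher in the KO library of every number, and KO library 1 lay under control libraries 2 and 3. It was chosen after the values were seen and was not tested.

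The makeup of the IGF-binding protein RNA, as shares of the summed counts per kilobase of the 6 genes, was led by the same 2 genes in all 6 libraries. Igfbp7 held 37.7% to 42.5% and Igfbp5 31.8% to 37.4%. Igfbp4 held 11.2% to 14.5% and Igfbp6 8.33% to 12.3%, and Igfbp3 1.07% to 2.25%. In controls the mean share of Igfbp7 was 38.7% ± 1.28 and in KO libraries 41.3% ± 1.90 (SD, n = 3 each), with control library 3 (40.1%) above KO library 1 (39.1%). Igfbp2 held 1.72% in control library 2 and at most 0.213% in the others. These shares depend on exon lengths and are a description with no test.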
